A study of Mus musculus with 16 samples.

Results

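The secretory-pathway mRNAs Dpep1, Pdgfrl, Ptx3 and Rcn3 were described array by array in AML12 mouse hepatocytes with and without depletion of the initiation factor eIF6. They are 4 of the 30214 gene names on the array, of which 19364 were kept and tested. They were chosen by their large drop of polysomal against subpolysomal signal with eIF6 shRNA, among genes well above background on all 16 arrays. That difference, and the polysomal and subpolysomal changes behind it, are therefore given as descriptions with no test. The change of the mean of both fractions, which is orthogonal to it in this balanced design, was tested. That mean still includes the polysomal signal, so a drop in polysomes alone lowers it. Its adjusted p-value is therefore by itself no sign of a change beyond the polysomal drop.

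AML12 is a line of hepatocytes from a mouse that carries a transgene for human transforming growth factor alpha, and the labels give male cells. A lentiviral vector brought in a scramble shRNA in the control cells and, in the others, one that the study directs at eIF6. Doxycycline induced both, and all cultures received insulin for 1 h. The insulin concentration is 100 nM in the sample descriptions and 100 mM in the treatment protocol. Each lysate was spread on a sucrose gradient, and its fractions were pooled into subpolysomal RNA, which holds free particles, subunits and monosomes, and polysomal RNA. This gives 4 groups of 4 one-colour arrays on 4 slides, and every slide holds 1 array of each group. No group went without doxycycline or without insulin. The study describes biological quadruplicates, but whether the 4 come from separate infections is not stated, so p-values measure the spread between these samples.

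Between 20175 and 24950 probes were well above background on an array, and no probe was saturated. Eif6 itself was lower in the polysomal RNA of the shRNA cells, with a fitted difference of -1.05 (SE 0.079) on the log2 scale and all 4 arrays below the 12.94 of the lowest scramble array. In subpolysomal RNA it lay at 11.49 to 11.74 against 11.53 to 11.66, which overlap, and its mean over both fractions fell by 0.52 (adjusted p = 3.45e-06, limma). Of 11 hepatocyte markers 8 were well above background on all arrays, among them Hnf4a, Krt8 and Krt18, but albumin (Alb) was so on 7 arrays and Apoa1 on 2.

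eIF6 binds the large ribosomal subunit and keeps it from joining the small subunit too early. An mRNA with many ribosomes sediments with polysomes, and one with none or a single ribosome stays above them in the gradient, so the ratio of the signals is used as a measure of translational efficiency. All 4 proteins enter the secretory pathway, and ribosomes that make such proteins work at the membrane of the endoplasmic reticulum (ER). Dpep1 encodes a membrane dipeptidase that cuts the dipeptide left by glutathione breakdown and processes leukotrienes. Pdgfrl encodes a secreted protein that resembles the extracellular part of a PDGF receptor and has no kinase. Ptx3 encodes the long pentraxin, a secreted pattern-recognition protein of innate immunity. Rcn3 encodes reticulocalbin, an EF-hand calcium-binding protein of the ER lumen and a member of the CREC family.

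Each gene was read by 1 probe of 60 bases, so a value stands for the transcripts that hold these bases, and no second probe was there to compare. The last 30 bases of each probe are shown because every value below rests on them, in the orientation of the mRNA, with the motif AATAAA, the polyadenylation signal, in capitals. The probe positions are those of the array design in build mm9: Dpep1 at chr8:125724996-125725055 on the plus strand, Pdgfrl at chr8:42075859-42075918 on the plus strand, Ptx3 at chr3:66029245-66029304 on the plus strand, and Rcn3 at chr7:52338299-52338358 on the minus strand. Whether they lie in coding or untranslated sequence was not analysed here.
Dpep1: tcctgttgtccgtgcagaaccacacccttt
Pdgfrl: atgcccatctgcacacacagcttccaggtg
Ptx3: gttgaagggaaggcttgagagagggctccg
Rcn3: tgtcctgcctaggagcAATAAAagctgttg
The Rcn3 probe holds the motif, as do the last 30 bases of 10.6% of all 39429 probes, and the other 3 do not. The GC content of the probes was 55.0% for Dpep1, 51.7% for Pdgfrl, 45.0% for Ptx3 and 45.0% for Rcn3.

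Dpep1 was the dimmest of the 4 on every array. Its log2 normalized signal in scramble polysomes was 8.70, 8.42, 8.29 and 8.88 in replicates 1 to 4, and in scramble subpolysomes 7.56, 7.51, 7.41 and 7.54. With eIF6 shRNA it was 4.54, 4.31, 4.46 and 4.28 in polysomes and 5.85, 5.83, 6.40 and 5.54 in subpolysomes. All 4 groups were apart from each other, and the order of the fractions turned, with polysomes above subpolysomes in scramble cells and below them in shRNA cells. The polysomal difference was -4.18 (SE 0.16), an 18.1-fold lower signal, and the subpolysomal difference -1.60 (SE 0.16), 3.03-fold lower. In the shRNA polysomes the processed intensity of the probe was 22.7 to 29.8, while the lowest intensity of any probe called well above background on those arrays was 7.08 to 11.2. The size of the drop therefore rests on dim spots: with the normexp background correction the polysomal difference was -2.25 in place of -4.18.

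Pdgfrl had the steepest lean to polysomes in scramble cells. Its signal was 10.74, 10.74, 10.42 and 11.07 in scramble polysomes against 8.67, 8.58, 8.60 and 8.49 in scramble subpolysomes. With eIF6 shRNA it was 7.92, 8.10, 7.87 and 8.10 in polysomes and 8.50, 8.09, 8.76 and 8.18 in subpolysomes. The shRNA polysomal values lay below all scramble values, while the subpolysomal values of both shRNAs overlapped. The polysomal difference was -2.74 (SE 0.15), 6.70-fold lower, and the subpolysomal difference -0.20 (SE 0.15). Of the 4 genes it was the one whose signal differed least in subpolysomal RNA.

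Ptx3 had the largest SD of the 4 genes in 3 of the 4 groups. Its signal was 9.90, 9.92, 9.43 and 10.41 in scramble polysomes and 8.54, 8.54, 8.53 and 7.88 in scramble subpolysomes, where replicate 4 stood apart from the other 3. With eIF6 shRNA it was 6.49, 6.58, 6.96 and 7.42 in polysomes and 7.92, 7.50, 8.31 and 7.67 in subpolysomes. The polysomal groups did not overlap, whereas the subpolysomal groups did, because of scramble replicate 4. The polysomal difference was -3.05 (SE 0.25), 8.27-fold lower, and the subpolysomal difference -0.52 (SE 0.25), 1.44-fold lower.

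Rcn3 was the brightest of the 4, with intensities up to 41850. Its signal was 13.45, 13.35, 13.17 and 13.91 in scramble polysomes and 12.28, 12.15, 12.24 and 12.19 in scramble subpolysomes. With eIF6 shRNA it was 10.24, 10.40, 10.38 and 10.57 in polysomes and 11.48, 11.11, 11.75 and 11.13 in subpolysomes. The groups were apart in both fractions, and the order of the fractions turned as it did for Dpep1. The polysomal difference was -3.07 (SE 0.16), 8.42-fold lower, and the subpolysomal difference -0.84 (SE 0.16), 1.80-fold lower. Signals of different probes depend on the probe as well as on the mRNA, so dim and bright here describe spots and not the amount of each mRNA.

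**Figure D1:**
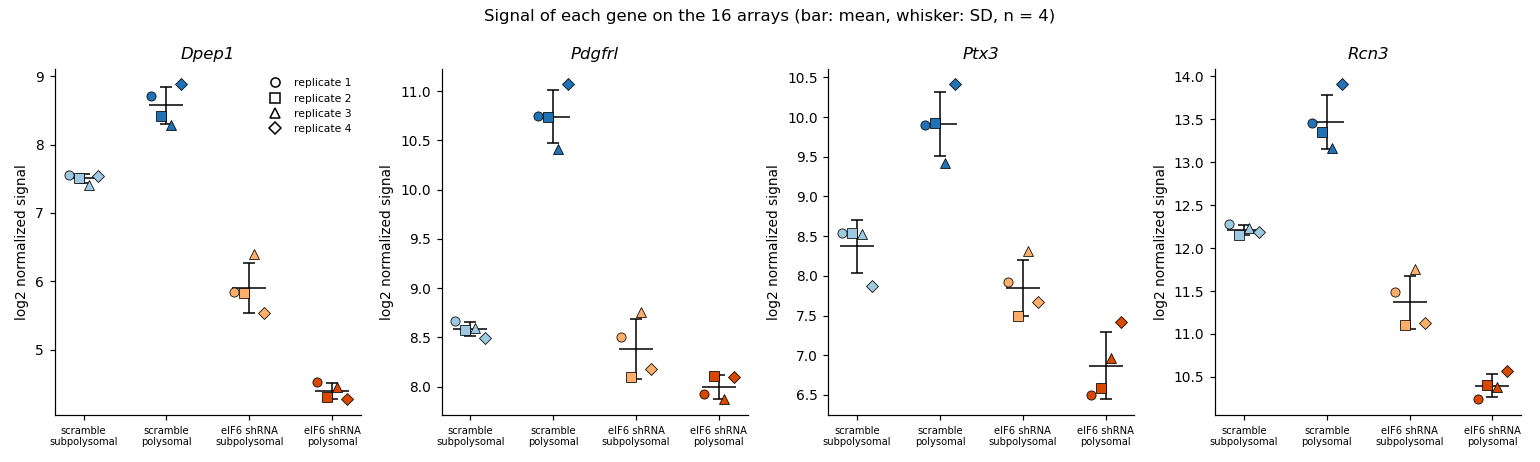
Log2 normalized signal (y axis) of each gene on the 16 arrays, by group (x axis), with a marker shape for each replicate number, a bar for the mean and a whisker for the SD (n = 4). For Dpep1, Ptx3 and Rcn3 all 4 scramble polysomal arrays lie above, and the shRNA polysomal arrays below, the subpolysomal arrays of the same shRNA, while the 4 shRNA subpolysomal values of Pdgfrl, 8.09 to 8.76, overlap its shRNA polysomal values, 7.87 to 8.10.

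The fractions were then set against each other within each shRNA by replicate number, as the log2 polysomal minus subpolysomal signal. The numbers are those of the labels, which do not say that 1 number marks 1 lysate. The fitted changes and their standard errors do not use them. In scramble cells Dpep1 gave 1.15, 0.90, 0.87 and 1.34, Pdgfrl 2.08, 2.16, 1.82 and 2.58, Ptx3 1.35, 1.39, 0.90 and 2.54, and Rcn3 1.18, 1.20, 0.93 and 1.72. All 16 differences were above 0, the largest was that of replicate 4 for every gene and the smallest that of replicate 3. In shRNA cells Dpep1 gave -1.31, -1.52, -1.94 and -1.26, and Pdgfrl -0.58, 0.011, -0.89 and -0.082. Ptx3 gave -1.43, -0.91, -1.35 and -0.25 there, and Rcn3 -1.25, -0.70, -1.38 and -0.57. These were below 0 except for Pdgfrl in replicate 2. For each gene all shRNA differences lay below all scramble ones, as for 964 of the 19364 genes tested. The genes were chosen on this drop, so their separation is no further result. As group means (SD, n = 4), Dpep1 went from 1.07 ± 0.22 to -1.51 ± 0.31, Pdgfrl from 2.16 ± 0.32 to -0.38 ± 0.42, Ptx3 from 1.54 ± 0.70 to -0.98 ± 0.54 and Rcn3 from 1.26 ± 0.33 to -0.97 ± 0.40. Their place among all genes moved with it. The share of genes with a lower difference than theirs was 90.1% for Dpep1, 99.5% for Pdgfrl, 96.8% for Ptx3 and 93.6% for Rcn3 in scramble cells. In shRNA cells it was 6.05%, 30.8%, 13.1% and 13.3%, in the same order. Pdgfrl thus started farthest on the polysomal side and ended nearer the middle than the other 3.

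**Figure D2:**
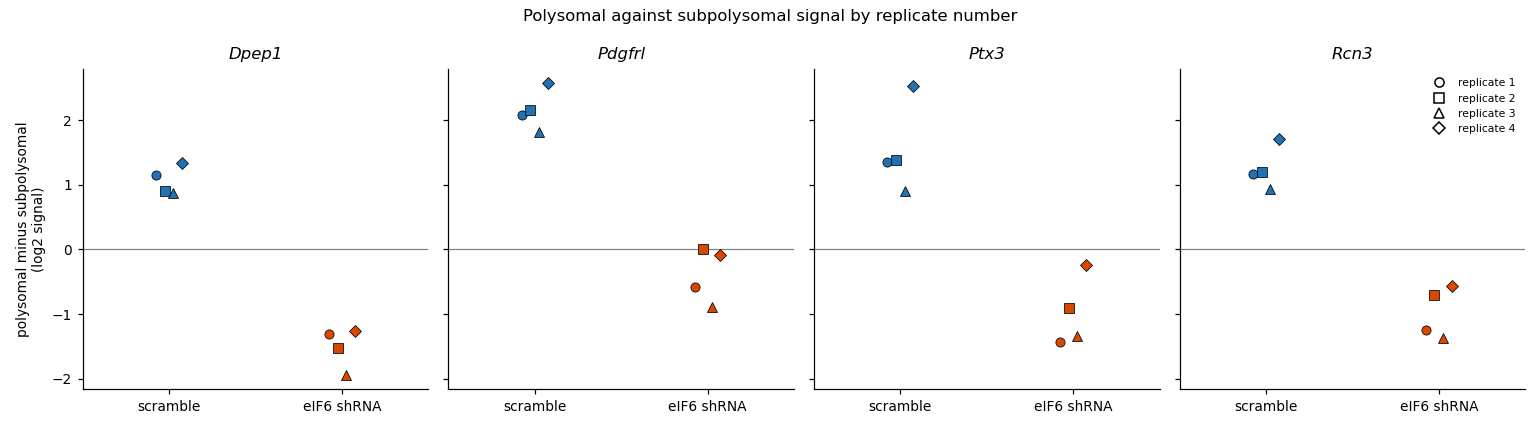
Polysomal minus subpolysomal log2 signal (y axis) for each replicate number in scramble and eIF6 shRNA cells (x axis), with a marker shape per number and a grey line at 0. The scramble values run from 0.87 to 2.58 and the shRNA values from -1.94 to 0.011. Each gene has a gap between them, as do 964 of the 19364 genes tested.

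The difference of these differences, the change in translational efficiency, chose the genes and is not tested for them. It was -2.57 (SE 0.23) for Dpep1, -2.54 (SE 0.21) for Pdgfrl, -2.53 (SE 0.36) for Ptx3 and -2.23 (SE 0.23) for Rcn3, that is 5.96-fold, 5.83-fold, 5.77-fold and 4.69-fold lower, against a median of 0.017 over all genes. The standard errors leave no order among Dpep1, Pdgfrl and Ptx3. Over all tested genes 214 (1.11%) were called lower and 78 (0.403%) higher in this comparison, a background against which nothing is read for genes chosen on it. Among 160 genes called lower, well above background on every array and apart between the shRNAs, Dpep1, Pdgfrl and Ptx3 had ranks 1, 2 and 3 and Rcn3 had rank 5. Being in that group and these ranks restate how the genes were chosen and are no further result. With normexp, whose offset shrinks differences of dim spots, the changes were -1.35 for Dpep1, -2.20 for Pdgfrl, -1.95 for Ptx3 and -2.18 for Rcn3. The first place of Dpep1 thus depends on how dim spots are treated. Rank 4 was the collagen chain Col1a2 at -2.31, and after Rcn3 came Fkbp7, an ER peptidyl-prolyl isomerase, at -2.10, Lox, which cross-links collagen, at -2.00 and the secreted serpin Serpinf1 at -1.98. So the values just inside and just outside the set were -2.23 and -2.10, with no gap beyond their errors. Without the demands on background, 46 genes had a change of at least that of Rcn3, of which 23 were not called and 18 were called but were not well above background on every array.

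Each slide gives the same 4 comparisons from 4 arrays that were hybridised together. On slides 1 to 4 the change in translational efficiency was -2.05, -2.76, -3.56 and -1.94 for Dpep1 and -2.09, -2.57, -3.12 and -2.39 for Pdgfrl. For Ptx3 it was -2.55, -1.86, -3.61 and -2.08, and for Rcn3 -1.85, -2.22, -3.02 and -1.82. It was below 0 on every slide, and slide 3 had the lowest value for every gene. Slide 3 held scramble polysomal replicate 4, whose signal was the highest of its group for all 4 genes, and shRNA subpolysomal replicate 3, which was also the highest of its group for all 4. Deviations of the arrays from their group means moved together among the genes. Their Pearson correlation over 16 arrays was lowest for Dpep1 with Ptx3, at 0.465, and highest for Pdgfrl with Rcn3, at 0.943. The 4 genes share these arrays and their normalization.

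The signal of the genes also dropped when both fractions were averaged. This mean includes the polysomal signal, so a drop in polysomes alone lowers it too. For Pdgfrl and Ptx3 the subpolysomal differences were -0.20 and -0.52, and their subpolysomal groups overlapped. Their polysomal differences were -2.74 and -3.05, so most of the fall of their mean came from the polysomal signal used in choosing them. The mean over both fractions fell by 2.89 (SE 0.11, adjusted p = 9.81e-11) for Dpep1, 7.41-fold. With the normexp background correction, whose offset shrinks differences of dim spots, this change was -1.57, so its size depends on how such spots are treated. It decreased by 1.47 (SE 0.11, adjusted p = 4.52e-08) for Pdgfrl and dropped by 1.78 (SE 0.18, adjusted p = 1.54e-06) for Ptx3. For Rcn3 it fell by 1.96 (SE 0.11, adjusted p = 4.4e-09, limma, Benjamini-Hochberg over all genes). By replicate number Dpep1 lay at 7.85 to 8.21 in scramble and 4.91 to 5.43 in shRNA cells, and Pdgfrl at 9.51 to 9.78 and 8.10 to 8.31. Ptx3 lay at 8.98 to 9.23 and 7.04 to 7.64, and Rcn3 at 12.70 to 13.05 and 10.75 to 11.07. The shRNA values were below the scramble values for each gene, a separation that was not counted over all genes. With the fractions averaged by number, the exact two-sided permutation test gave p = 0.0286 for each, the smallest that 70 splits of 4 against 4 can give. This p restates that separation, and the labels do not say that 1 number marks 1 culture. All 4 genes passed the adjusted test in a comparison where 3161 genes (16.3%) fell and 3245 (16.8%) rose, with a median of 0.028. A larger drop was found for 22 genes in the case of Dpep1, 161 for Rcn3, 228 for Ptx3 and 387 for Pdgfrl. With normexp the change of Dpep1, -1.57, was smaller than that of Rcn3, -1.91. On the 4 slides, without normexp, the change of the mean ran from -3.05 to -2.73 for Dpep1 and from -1.68 to -1.36 for Pdgfrl. It ran from -2.02 to -1.54 for Ptx3 and from -2.06 to -1.78 for Rcn3. This mean weights both pools equally and is no measure of total mRNA, and from it a lower amount of mRNA and fewer cells that make it cannot be told apart.

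**Figure D3:**
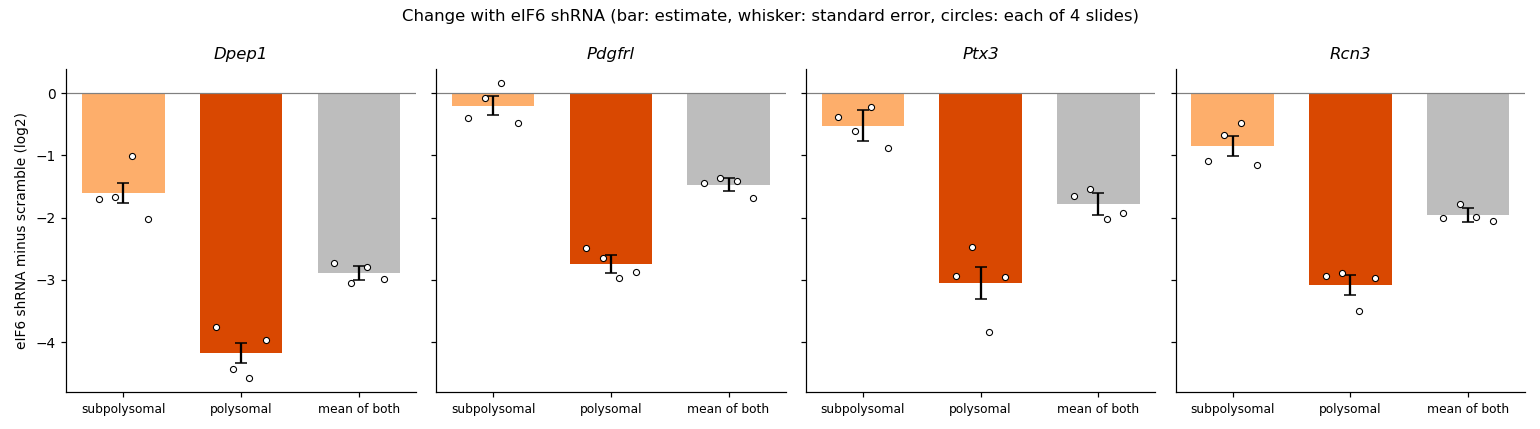
Change with eIF6 shRNA against scramble (y axis, log2) in subpolysomal RNA, in polysomal RNA and in their mean (x axis), as the fitted estimate (bar), its standard error (whisker) and the value on each of the 4 slides (circles). The polysomal bar is the longest for each gene, from -2.74 for Pdgfrl to -4.18 for Dpep1, and 1 circle, the subpolysomal change of Pdgfrl on slide 3 at 0.16, lies above 0.

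Cells of another kind are the values to set beside this. AML12 is an epithelial line. In these data 10 of 11 tested mesenchymal or stellate markers fell in the mean over both fractions, with a median of -1.56, and none rose, against 16.3% and 16.8% of all genes. That median is the value of Postn, which was well above background on 4 arrays. Among the 7 markers well above background on every array, 6 fell, with a median of -1.70. Acta2 and Tagln, of the smooth muscle contractile apparatus, fell, with changes of -1.80 and -1.70 (adjusted p = 4.8e-09 and 4.21e-10). The surface protein Thy1 fell by 1.99 (adjusted p = 4.45e-11), and vimentin (Vim) did not pass, at -0.21 (adjusted p = 0.38). Acta2 (-1.87, adjusted p = 0.000312), Tagln (-1.25, adjusted p = 0.000584) and Thy1 (-0.91, adjusted p = 0.00388) also fell in translational efficiency, while no gene of this list rose. Over all genes 1.11% were called lower and 0.403% higher there. The summed linear signal of the list was 104323 to 111118 in scramble subpolysomes and 54122 to 65281 in shRNA subpolysomes, and 141804 to 175545 and 40894 to 47707 in polysomes, so its groups did not overlap. The leukocyte sum was also lower without overlap, at 9333 to 10510 against 6400 to 6924 in subpolysomes. In polysomes it was 6324 to 7310 against 4933.5 to 5674. The hepatocyte and endothelial sums overlapped in both fractions. Such separation was not counted for other sets of genes. The 7 mesenchymal or stellate markers well above background on every array were Vim, Thy1, Pdgfrb, Fn1, Acta2, Tagln and S100a4. Of the others Dcn was so on 15 arrays, Des on 8, Pdgfra on 8, all of them scramble, Postn on 4 and Lum on none. Of 6 leukocyte markers Csf1r and Itgam fell, of 4 endothelial ones Vwf rose, and of 11 hepatocyte ones Ttr, Afp and Cebpa rose by 1.24, 1.23 and 1.03 while Hnf4a fell by 0.23, a call lost in 7 of 16 alternatives. The part of a shift in cell makeup or state in the results of the 4 genes was not tested.

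The genes whose signal ran most alike over the 16 arrays were named by Pearson correlation, among 13332 others well above background throughout. The arrays fall into 4 groups, so this likeness mainly describes the group means. For Dpep1 they were Lox at 0.986, the smooth muscle actin Actg2 at 0.986 and Tagln at 0.985. For Pdgfrl they were Ifi27, an interferon-induced gene, at 0.978, Serpinf1 at 0.978 and Ambp at 0.968. For Ptx3 they were Rcn3 at 0.977, Ambp at 0.944 and Actg2 at 0.939. For Rcn3 they were Actg2 at 0.985, Dpep1 at 0.980 and Ptx3 at 0.977. Among the 4 genes the correlation ran from 0.836 for Dpep1 with Pdgfrl to 0.980 for Dpep1 with Rcn3.

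Around Dpep1, a list of 18 genes of glutathione and leukotriene peptide metabolism had 16 tested genes, and none was called in translational efficiency (median -0.11). Among all genes 1.11% were called lower and 0.403% higher there. In the mean over both fractions 2 fell and 5 rose (median 0.23), 12.5% and 31.2% against 16.3% and 16.8% of all genes. Ggt7 of the gamma-glutamyltransferase family fell by 0.85 (adjusted p = 5.43e-05), and Alox5ap, which presents substrate to 5-lipoxygenase, fell by 0.46 (adjusted p = 0.0147). Ltc4s, which makes cysteinyl leukotriene from glutathione, rose by 0.71 (adjusted p = 1.34e-05), the dipeptidase Cndp2 by 0.70 (adjusted p = 0.00063) and the aminopeptidase Anpep by 0.58 (adjusted p = 0.0132). Of the other membrane dipeptidases Dpep2 was well above background on 10 arrays and changed by 0.21 (adjusted p = 0.475), and Dpep3 was not above background on any.

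Around Pdgfrl, 16 of 17 PDGF ligands, receptors and adaptors were tested, and none was called in translational efficiency (median 0.0087). Among all genes 1.11% were called lower and 0.403% higher in that comparison. In the mean over both fractions 2 fell and 4 rose (median -0.029). Over all genes these shares were 16.3% and 16.8%, against 12.5% and 25% here. The receptors were the ones that fell. Pdgfrb fell by 2.65 (adjusted p = 1.94e-10). Pdgfra (adjusted p = 1.19e-08) was well above background on all 8 scramble arrays and on none of the shRNA arrays, so its signal was lower by at least 2.02 on the log2 scale in subpolysomes and at least 2.83 in polysomes, bounds taken against the lowest signal well above background. The ligands Pdgfb and Pdgfa rose by 0.84 and 0.33 (adjusted p = 2.02e-05 and 0.00016). Pdgfd was also called (adjusted p = 0.0145), but it was not well above background on any subpolysomal array, its polysomal mean was 4.30 with shRNA against 4.00, and the call was lost with normexp, with spike-in scaling and without replicate 1 or 4. Pdgfrb changed by -3.10 in polysomes and by -2.21 in subpolysomes, so that, beside Pdgfrl with -2.74 and -0.20, more of its change was shared by both fractions. Its change in translational efficiency was -0.89 (adjusted p = 0.0683), and with the slide as a block the adjusted p was 0.044. It was also called in 4 of the other alternatives, at -1.20 with 75th percentile scaling, where Pdgfra was called as well.

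Around Ptx3, 10 of 21 pentraxins and binding partners were tested, and 7 were at background on every array. Ambp, whose product supplies bikunin to the hyaluronan-binding inter-alpha-inhibitor, was the 1 gene called in translational efficiency, where it fell by 1.63 (adjusted p = 0.00414, list median -0.30). Among all genes 1.11% were called lower and 0.403% higher there. In the mean over both fractions Ambp fell by 0.85 (adjusted p = 9.79e-05) and the Fc receptor Fcgr4 by 0.70 (adjusted p = 0.00538), and Itih2, a heavy chain of the same inhibitor, rose by 0.66 (adjusted p = 0.0253, list median 0.0073). So 20% of the tested list genes fell and 10% rose, against 16.3% and 16.8% of all genes. The Itih2 call was lost in 7 of 16 alternatives, and Fcgr4 was well above background on 10 arrays. The short pentraxin Crp changed by 0.091 (adjusted p = 0.583). Of the neuronal pentraxins Nptx1 was not well above background on any array and Nptx2 was on 1.

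Around Rcn3, all 23 genes of the CREC family and the ER chaperones were tested, and 4 fell in translational efficiency while none rose (median -0.34). Of all genes 1.11% were called lower and 0.403% higher in that comparison. Fkbp10, a collagen chaperone of the ER, fell by 1.10 (adjusted p = 0.00673), Rcn1 by 1.07 (adjusted p = 0.000388), the cyclophilin Ppib by 0.81 (adjusted p = 0.0384) and the retrieval receptor Kdelr1 by 0.69 (adjusted p = 0.0176). In the mean over both fractions 6 fell and 3 rose (median -0.060), 26.1% and 13% against 16.3% and 16.8% of all genes. Rcn1 fell by 2.31 (adjusted p = 4.25e-12), Fkbp10 fell by 1.88 (adjusted p = 8.75e-10) and Kdelr3 fell by 1.25 (adjusted p = 7.65e-08). Sil1, Pcsk6 and Kdelr1 rose by 0.49, 0.37 and 0.34 (adjusted p = 0.000134, 0.000235 and 0.00102). Of the closest relatives Calu fell by 0.37 (adjusted p = 0.0135), Rcn2 changed by -0.30 (adjusted p = 0.109) and Sdf4 by 0.027 (adjusted p = 0.826). The general chaperone Hspa5 changed by -0.18 (adjusted p = 0.524).

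All 31 genes of signal peptide recognition, translocation and glycan transfer were tested, since the 4 proteins pass through this machinery. Ssr4 was the 1 gene called in translational efficiency, where it fell by 0.60 (adjusted p = 0.0291), and the median was -0.017. Among all genes 1.11% were called lower and 0.403% higher there. In the mean over both fractions 6 fell, 19.4% against 16.3% of all genes, and the count ran from 0 to 9 over the alternatives. Spcs3, Sec61g and Sec61b had the largest changes, at -0.40, -0.38 and -0.38 (adjusted p = 0.00163, 0.00646 and 0.00242), of which Sec61g was not called in 4 of 16 alternatives. Ssr4 rose by 0.20 (adjusted p = 0.0244, list median -0.11), the 1 gene of the list to do so, 3.23% against 16.8% of all genes. With scaling to the spike-in probes, none of the 9 genes of these lists called in translational efficiency was called, all kept their sign, and 18 of the 47 called in the mean of both fractions were called. The mean change turned sign there for 5 of the 47, Kdelr1, Pcsk6, Ssr4, Chac2 and Pik3r1. Leaving out replicate 1, 2 or 3 left 3, 5 and 4 of the 9 called.

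**Figure D4:**
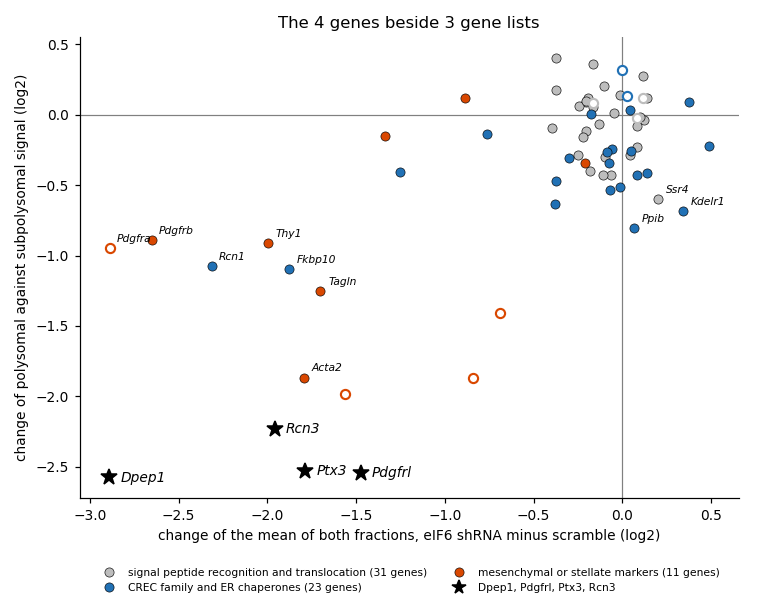
Change in translational efficiency (y axis, log2) against the change of the mean over both fractions (x axis, log2) for the 4 genes (stars) and 3 lists of tested genes (circles, 1 per gene). Open circles are genes with a probe that was not well above background on some array. The stars lie lowest, at -2.23 to -2.57 on the y axis, which chose them.

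The start sites of Dpep1, Ptx3 and Rcn3 were found in a RefSeq table (GRCm38.p6), so 3 of 4 genes matched. GC content of the 50 bases from the start on was 48.0% for Dpep1, 58.0% for Ptx3 and 66.0% for Rcn3, against a median of 56.0% over 27025 genes. These are at the 26.1, 55.7 and 74.9 percentile, so the 3 genes lie on both sides of the middle. In the 250 bases before the start it was 53.6%, 54.0% and 53.2%, against a median of 52.0%. The 100 bases before the start are shown as a description only, with CCAAT and GGGCGG in capitals where found, on either strand. The windows are chr8:123186135-123186234 on the plus strand, chr3:66219787-66219886 on the plus strand and chr7:45092214-45092313 on the minus strand.
Dpep1: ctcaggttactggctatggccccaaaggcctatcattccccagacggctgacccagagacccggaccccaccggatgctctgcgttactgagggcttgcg
Ptx3: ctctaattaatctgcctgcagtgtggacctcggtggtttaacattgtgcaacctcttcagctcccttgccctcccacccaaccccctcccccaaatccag
Rcn3: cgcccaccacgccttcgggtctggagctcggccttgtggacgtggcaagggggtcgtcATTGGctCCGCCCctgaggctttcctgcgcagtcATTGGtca
Rcn3 held CCAAT 2 times and GGGCGG 1 time, both read from the other strand, and Dpep1 and Ptx3 held neither. None of the 3 held TATAAA. Among all promoters 19.6% hold CCAAT in this window, 25.2% GGGCGG and 5.95% TATAAA. A match describes letters and is no measured site.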

How the data were processed

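Processed intensities were deposited by the authors as Agilent Feature Extraction files, 1 per array, already background-corrected on a linear scale (version 10.7.7.1 per the submitters' processing notes). The authors also deposited a normalized log2 table of the same arrays, used as an alternative. Flagged outlier spots were left out, repeated spots averaged, and log2 intensities of 25259 of 39429 probes, those that at least 2 arrays of some group showed well above background, were quantile normalized over 16 arrays. Quantile normalization sets all arrays to 1 distribution, so a change in total polysomal RNA is not measured and each value is relative to the other mRNAs of its fraction. Probes of a gene were averaged, and 1 mean per group was fitted (limma 3.58.1, R 4.3.3, Benjamini-Hochberg threshold 0.05). The script was tested on simulated data. The members, lists and tests were chosen with earlier results of these data known. Named genes are the members, their 3 nearest by correlation, their neighbours in the ranking, the relatives of the members and up to 3 called genes per list, comparison and direction; Vim, Hspa5, Crp, Kdelr1 and the markers of other cells outside that rule were named after their values were seen. Alternatives were another scaling, spike-in scaling, separate fractions, normexp (offset 50), 2 detection filters, the brightest probe, the deposited table, a slide or replicate block, and leaving out each replicate.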

Additional observations from a re-analysis of the deposited data

Results flagged for a closer look

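In scramble subpolysomal RNA, Ptx3 of replicate 4 stood apart from the other 3 arrays, with a gap that took 0.973 of the group's range at a log2 signal of 7.88. It is 1 of 16 groups examined, and chance marks about 1 in 20. Without this array the change in translational efficiency of Ptx3 was -2.36 and its mean over both fractions changed by -1.87 (adjusted p = 1.62e-06). The polysomal change differed from the subpolysomal change, by the interaction of shRNA and fraction, for 9 genes of the lists, all lower. Of all genes 1.11% were called lower and 0.403% higher by it. The lists were written with earlier results of these data known, so an excess over these shares would be no independent support. The 9 genes were Acta2 (-1.87), Ambp (-1.63), Tagln (-1.25), Fkbp10 (-1.10), Rcn1 (-1.07), Thy1 (-0.91), Ppib (-0.81), Kdelr1 (-0.69) and Ssr4 (-0.60). Of 16 alternatives, Rcn1, Acta2 and Tagln passed in 15, Ambp in 14, Thy1 in 13, Fkbp10 and Kdelr1 in 12, Ssr4 in 10 and Ppib in 8.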

How the results depend on the processing

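The change of the mean over both fractions stayed past the threshold with its sign for all 4 genes in every alternative run (largest adjusted p = 0.000265, Ptx3 without replicate 2). Translational efficiency stayed below 0 throughout, from -2.82 to -2.20 for Pdgfrl, -2.88 to -1.95 for Ptx3 and -2.49 to -2.17 for Rcn3. Dpep1 moved most, to -3.10 with 75th percentile scaling, -3.29 with spike-in scaling, -3.04 with each fraction normalized separately and -1.35 with normexp. Spike-in scaling also moved the median of all genes, to -0.47 in polysomes, -0.23 in subpolysomes, -0.34 in their mean and -0.22 in translational efficiency. There 31 genes were called lower and 2 higher in translational efficiency, and 1453 lower and 161 higher in the mean. Genes called lower in translational efficiency numbered 427 with 75th percentile scaling, 340 with separate fractions, 390 with normexp and 142 with no filter. Those called higher numbered 130 with separate fractions and 177 with normexp. Leaving out replicates gave 54 to 188 lower, with 54, 79 and 55 without replicates 1, 2 and 3, and 20 to 114 higher, with 20, 24 and 24. Of these the arrays left out alone, shRNA subpolysomal replicate 2, the dimmest, and scramble subpolysomal replicate 4, were chosen after seeing the data. Same-numbered arrays mostly did not deviate together, with median correlations of -0.063 to 0.072 by pair of groups. Between the 2 polysomal groups, however, 2 of 4 were above 0.1, and replicate 4 reached 0.412. No pairing entered the fit, since the methods of the study name none. The differences and the permutation test by number arrange the arrays by label only. Same-slide arrays deviated together (median correlation 0.129), and with the slide as a block 246 genes were called lower and 86 higher in translational efficiency. With the replicate block 219 genes were called lower and 67 higher in translational efficiency, and the adjusted p of the mean was 1.52e-08 for Dpep1 and 2.42e-05 for Ptx3. Ppib and Ssr4 were not called there. The planned check of N-terminal hydrophobic stretches was not run. How large the Dpep1 change is depends on the treatment of its dim spots.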
